A study of Mus musculus with 8 samples.

Results

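The 32 genes described here make, move and store cholesterol in the mouse liver. They were taken as a list of symbols, each of which matched 1 gene of the 33467 in the deposited expression table, with no symbol duplicated. All 32 passed the filter on low counts and were among the 19535 genes tested. By role, 19 encode enzymes of cholesterol synthesis, 4 control the transcription factor SREBP2, 5 act in uptake and delivery inside the cell, and 4 act in efflux or storage. Whole livers of wild type C57BL/6J mice were compared by bulk RNA sequencing of polyadenylated RNA. The controls ate standard diet and the other group ate 1% 3,5-diethoxycarbonyl-1,4-dihydrocollidine (DDC) for 4 weeks, with 4 mice in each group and 1 batch label for all 8 libraries. DDC is a porphyrinogenic compound used to injure the bile ducts, and the labels give it as a model of cholestasis with biliary fibrosis. The age and sex of the mice are not given in the sources used here.

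Cells build cholesterol from acetyl-CoA through mevalonate, the isoprenoids farnesyl and geranylgeranyl diphosphate, squalene and lanosterol. When membrane sterol is low, SCAP carries SREBP2 from the endoplasmic reticulum to the Golgi for cleavage, and the released fragment raises transcription of synthesis and uptake genes. When sterol is plentiful, INSIG proteins hold SCAP back, surplus cholesterol is esterified by SOAT enzymes, and the oxysterol receptor LXR raises the exporters ABCA1 and ABCG1. In the liver the same cholesterol also feeds bile acid synthesis and lipoproteins.

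The SREBP2 response is written into promoters as a sterol regulatory element that usually lies beside boxes for NF-Y and Sp1, so the 250 bases before the start of transcription are shown for 6 of the genes in the table of promoters. These are the 3 synthesis genes that rose most, the 2 that fell most and the storage gene Soat1, chosen after their values were seen. The sequences come from RefSeq on GRCm38.p6, read 5′ to 3′ on the strand of the gene. They span chr13:119690101-119690350 (Hmgcs1, plus strand), chr5:114444019-114444268 (Mvk, plus strand), chr8:122443423-122443672 (Mvd, minus strand), chrX:8193513-8193762 (Ebp, minus strand), chr19:6067851-6068100 (Tm7sf2, minus strand) and chr1:156474329-156474578 (Soat1, minus strand). Capitals mark the NF-Y box CCAAT, or ATTGG where it lies on the other strand, and the sterol element core TCACCCCAC.
Hmgcs1: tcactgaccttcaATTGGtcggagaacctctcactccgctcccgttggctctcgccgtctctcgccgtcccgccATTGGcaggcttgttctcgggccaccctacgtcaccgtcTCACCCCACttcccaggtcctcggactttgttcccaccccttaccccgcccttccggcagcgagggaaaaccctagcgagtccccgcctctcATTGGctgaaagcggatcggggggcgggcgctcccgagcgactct
Mvk: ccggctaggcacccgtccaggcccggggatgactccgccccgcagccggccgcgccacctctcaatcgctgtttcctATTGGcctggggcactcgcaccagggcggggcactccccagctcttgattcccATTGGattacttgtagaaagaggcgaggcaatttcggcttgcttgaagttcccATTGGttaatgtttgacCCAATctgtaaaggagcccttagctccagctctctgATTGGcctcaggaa
Mvd: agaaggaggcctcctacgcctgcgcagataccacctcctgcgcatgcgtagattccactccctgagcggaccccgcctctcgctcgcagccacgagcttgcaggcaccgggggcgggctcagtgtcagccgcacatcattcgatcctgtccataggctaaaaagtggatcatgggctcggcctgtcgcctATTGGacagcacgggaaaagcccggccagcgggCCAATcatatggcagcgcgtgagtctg
Ebp: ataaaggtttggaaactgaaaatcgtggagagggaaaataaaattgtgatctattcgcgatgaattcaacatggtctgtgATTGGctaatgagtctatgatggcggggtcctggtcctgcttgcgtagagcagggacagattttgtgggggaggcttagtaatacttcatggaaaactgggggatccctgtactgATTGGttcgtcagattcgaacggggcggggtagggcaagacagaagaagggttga
Tm7sf2: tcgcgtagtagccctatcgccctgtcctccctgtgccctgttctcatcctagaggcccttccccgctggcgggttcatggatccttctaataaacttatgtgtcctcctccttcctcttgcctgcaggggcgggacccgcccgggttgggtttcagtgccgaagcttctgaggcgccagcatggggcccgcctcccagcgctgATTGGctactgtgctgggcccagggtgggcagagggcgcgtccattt
Soat1: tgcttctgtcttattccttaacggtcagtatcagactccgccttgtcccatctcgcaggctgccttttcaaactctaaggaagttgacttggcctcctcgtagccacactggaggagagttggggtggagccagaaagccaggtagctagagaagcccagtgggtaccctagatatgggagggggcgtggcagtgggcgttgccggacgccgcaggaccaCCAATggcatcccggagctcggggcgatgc

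Among the windows of these 6 genes, the sterol element core was found in that of Hmgcs1 alone, 137 bases before the start, between NF-Y boxes. The Mvk window held 5 NF-Y boxes, that of Hmgcs1 3, those of Mvd and Ebp 2 each, and those of Tm7sf2 and Soat1 1 each. Of the 32 genes, 24 had a promoter in the RefSeq table. Searched on both strands, the sterol element core TCACNCCAC was in 1 of the 24 (4.17%) against 1.22% of all 27025 symbols. The NF-Y box CCAAT was in 21 of 24 (87.5%) against 37.5%, the Sp1 box GGGCGG in 20 of 24 (83.3%) against 35.4%, and the E-box CACGTG in 6 of 24 (25.0%) against 6.86%. Of the 6 genes shown, both those that rose and those that fell held NF-Y boxes. The 27025 symbols were not limited to genes tested here, whereas all 24 were tested, so the sets are unlike. A symbol counted if any of its windows held the motif. The counts are matches of letters in a short window, and binding was not measured.

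Libraries held 61179103 to 81664058 counts. The edgeR quasi-likelihood test with TMM scaling gave 5893 of 19535 genes higher in DDC (30.2%) and 5205 lower (26.6%) at a Benjamini-Hochberg adjusted p under 0.05. TMM assumes that most genes do not change, and it gave the controls factors of 0.792 to 0.815 and the DDC libraries 1.21 to 1.27. Scaling by library totals alone moved the median log2 change of all genes from 0.07 to 0.70, a shift of 0.62, and then 58.9% of genes were called higher and 8.96% lower. Values below are CPM, a gene's counts relative to the scaled library size, on the TMM scale unless another scale is named, and where the call of one of the 32 genes differs on library totals, that is given. The 8 hepatocyte markers all fell, from a summed 147762 to 176398 CPM in controls to 59840 to 75346 in DDC, and 7 of the 8 were lower on library totals. Macrophage markers rose in 12 of 12 (201 to 251 against 1893 to 2051 CPM), Kupffer cell markers in 5 of 5 (214 to 300 against 820 to 1185), cholangiocyte markers in 5 of 6 (66.8 to 145 against 699 to 1073) and stellate cell or fibroblast markers in 4 of 6 (234 to 354 against 909 to 1038). Endothelial markers rose in 2 of 5 (114 to 135 against 132 to 183 CPM). On library totals the stellate cell or fibroblast markers were higher in 6 of 6 and the endothelial markers in 5 of 5, and the other 3 lists that rose kept their counts. No marker was at 0 in any library. In whole tissue, fewer cells of a type and less RNA per cell cannot be told apart, and the part of this shift in the changes below was not tested.

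Of the 32 genes, 11 rose (34.4%), 8 fell (25.0%) and 13 did not pass the test, with a median log2 change of 0.10 against 0.07 for all genes tested. These shares lie near the 30.2% and 26.6% of all genes, so the list as a whole did not stand out from the background. All DDC libraries lay above all controls in 10 genes (31.2%, against 26.9% of all genes) and below them in 6 (18.8%, against 25.7%). The log2 changes ran from 2.69 for Abcg1 to -1.65 for Tm7sf2, a span of 4.33 (20.1-fold) that does not depend on how libraries are scaled; it was not compared with the span of other genes. On library totals, 22 of the 32 were higher (68.8%) and 3 lower (9.4%), against the 58.9% and 8.96% of all genes. The 11 risers were higher under both scalings, whereas of the 8 that fell only Tm7sf2, Ebp and Scap were also lower on library totals.

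Synthesis genes went both ways. Of 19 enzymes, 6 rose (Hmgcs1, Mvk, Mvd, Fdft1, Sqle and Msmo1), 4 fell (Fdps, Ggps1, Tm7sf2 and Ebp) and 9 did not pass, with a median log2 change of 0.17. These are 31.6% and 21.1% of the 19, near the 30.2% and 26.6% of all genes. On library totals 13 were higher (68.4%, against 58.9% of all genes) and 2 (Tm7sf2 and Ebp) lower (10.5%, against 8.96%), with a median of 0.79. Without controls 2 and 4 the number that fell went from 4 to 7, with Acat2 (-0.41, edgeR adjusted p = 0.0363), Pmvk and Sc5d added. The number that rose then went from 6 to 5. Without controls 1 and 3, 8 rose and 3 fell. Over all genes, 5453 were called higher and 5016 lower of 21484 tested without controls 2 and 4. Without controls 1 and 3 these counts were 5180 and 4659 of 21514, against 5893 and 5205 of 19535 with all libraries. Controls 1 and 3 were above controls 2 and 4 in 15 of the 19, so leaving out either pair moves the changes in a set direction. Calls that such a removal adds, here and below, show dependence on the libraries and are no support for a change. The summed level of the 19 overlapped between groups, at 1976 to 3020 CPM in controls and 1960 to 2964 in DDC.

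Hmgcs1 (ENSMUSG00000093930, chr13:119690379-119708260, plus strand, GRCm38), the cytosolic synthase that condenses acetoacetyl-CoA into HMG-CoA, was the enzyme that rose most. It read 148, 84.0, 142 and 106 CPM in controls 1 to 4 and 341, 599.5, 544 and 560.3 in DDC 1 to 4. Every DDC library stood more than 2-fold above the highest control, with DDC 1 the lowest of its group. The means were 120.00 ± 30.2 and 511 ± 116 CPM (SD, n = 4), a 4.26-fold rise with a log2 change of 2.09 (SE 0.23, edgeR adjusted p = 6.43e-05). Per length it went from the 14th most abundant of the 32 genes, at 20.3 ± 5.13 FPKM, to the first, at 133 ± 30.5 FPKM. FPKM follows library totals, on which the rise of Hmgcs1 was 6.57-fold.

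The mevalonate enzymes did not move together. Mvk (ENSMUSG00000041939, chr5:114444269-114460591, plus strand), mevalonate kinase, was at 15.6, 15.4, 16.0 and 16.0 CPM in controls and 26.7, 36.2, 37.9 and 40.7 in DDC. Its controls differed by only 1.04-fold between the highest and the lowest, and the rise was 2.25-fold (log2 1.17, SE 0.12, edgeR adjusted p = 2.39e-05). Mvd (ENSMUSG00000006517, chr8:122433601-122443422, minus strand), the decarboxylase that makes isopentenyl diphosphate, was at 14.5, 8.64, 11.5 and 8.74 CPM in controls and 27.5, 40.4, 40.1 and 39.9 in DDC. The lowest DDC library was nearly 2-fold above the highest control, and the rise was 3.42-fold (log2 1.77, SE 0.19, edgeR adjusted p = 4.68e-05). Pmvk, phosphomevalonate kinase, acts between them in the pathway, yet it read 78.3, 38.7, 74.6 and 37.7 CPM in controls and 30.4, 39.9, 36.3 and 38.7 in DDC. Controls 2 and 4 lay among the DDC values and controls 1 and 3 far above them. Its log2 change of -0.66 (SE 0.26, edgeR adjusted p = 0.0601) missed the threshold, was -0.04 on library totals, and passed without control 2 (adjusted p = 0.0228), without control 4 (adjusted p = 0.0206) and without both (-1.08, adjusted p = 8.57e-05). Controls 2 and 4 were its lowest controls, so leaving them out deepens the fall, and these calls are no support for it. Acat2, the thiolase that opens the pathway, read 112 ± 28.9 CPM in controls and 104 ± 15.4 in DDC, with a log2 change of -0.11 (SE 0.19, edgeR adjusted p = 0.634) that became 0.51 on library totals (adjusted p = 0.0367). Reads of Acat2 may be shared with its near-identical neighbour Acat3 (222 ± 23.9 and 173 ± 23.4 CPM), so its value is uncertain.

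At the 3 isoprenoid steps Fdps and Ggps1 fell and Idi1 did not pass, and neither fall was called on library totals. Idi1, the isomerase of isopentenyl diphosphate, read 204, 144, 188 and 111 CPM in controls and 149, 235, 205 and 218 in DDC, and the groups overlapped. Its log2 change of 0.32 (SE 0.21, edgeR adjusted p = 0.216) passed on library totals (0.94, adjusted p = 0.00363) and without controls 1 and 3 (0.66, adjusted p = 0.0321). Fdps, farnesyl diphosphate synthase, read 387, 234, 332 and 191 CPM in controls and 137, 206, 185 and 200.3 in DDC. Control 4 lay inside the DDC range. The 1.57-fold fall (log2 -0.65, SE 0.23, edgeR adjusted p = 0.0349) was -0.03 on library totals (adjusted p = 0.917) and was lost when control 1, control 3, DDC 1, DDC 3 or DDC 4 was left out, with adjusted p of 0.0505 to 0.0823. Ggps1, which makes geranylgeranyl diphosphate for protein prenylation, read 17.8, 17.7, 17.01 and 16.7 CPM in controls and 12.6, 11.4, 9.74 and 13.03 in DDC. The groups were apart and the fall was 1.48-fold on the TMM scale (log2 -0.57, SE 0.10, edgeR adjusted p = 0.000914), but the sign turned on library totals (0.06, adjusted p = 0.638).

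The enzymes that make and oxidise squalene rose. Fdft1, squalene synthase, read 142, 95.7, 138 and 88.6 CPM in controls and 145, 205, 190.5 and 202 in DDC. DDC 1 was just above the highest control, and the mean rose 1.60-fold (log2 0.68, SE 0.18, edgeR adjusted p = 0.00971). Its exons overlap those of Ctsb on the other strand over 18.3% of their length, Ctsb rose from 649 ± 14.3 to 1293 ± 65.0 CPM (log2 1.00, edgeR adjusted p = 9.01e-07), and the strand setting of the counting is unknown here, so the reads of the pair may be mixed. Sqle (ENSMUSG00000022351, chr15:59315077-59331192, plus strand), squalene epoxidase, read 83.4, 66.8, 84.4 and 53.8 CPM in controls and 107, 157, 143 and 151 in DDC. All 4 DDC libraries were above all controls, and the rise was 1.93-fold (log2 0.95, SE 0.17, edgeR adjusted p = 0.00102). Lss, lanosterol synthase, read 109.8, 61.3, 102 and 57.4 CPM in controls and 89.9, 128, 117 and 123 in DDC. Its log2 change of 0.47 (SE 0.23, edgeR adjusted p = 0.11) missed the threshold but passed without control 1 (adjusted p = 0.0441), without controls 1 and 3 (0.94, adjusted p = 0.00162) and on library totals (1.09, adjusted p = 0.00301).

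Between lanosterol and cholesterol, a pair of enzymes fell while their neighbours rose or did not pass the test. Tm7sf2 (ENSMUSG00000024799, chr19:6062821-6067850, minus strand), a sterol reductase, read 226, 176, 215 and 180.0 CPM in controls and 40.6, 72.7, 67.6 and 73.5 in DDC. Its lowest control was more than 2-fold above its highest DDC library, and the fall was 3.13-fold (log2 -1.65, SE 0.19, edgeR adjusted p = 6.95e-05; -1.02 on library totals, adjusted p = 0.00113). Vps51, whose exons overlap 12.1% of those of Tm7sf2, read 19.5 ± 2.24 and 19.9 ± 1.04 CPM. Ebp (ENSMUSG00000031168, chrX:8185329-8193512, minus strand), the sterol isomerase also known as emopamil-binding protein, read 315, 262, 314 and 249.9 CPM in controls and 94.6, 103, 101 and 101 in DDC. The DDC libraries were within a few CPM of each other, and the fall was 2.85-fold (log2 -1.51, SE 0.09, edgeR adjusted p = 6.96e-07; -0.89 on library totals, adjusted p = 1.98e-05). Hmgcs1 and Ebp, near the start and the end of one pathway, thus parted by 3.60 on the log2 scale, whatever the scaling.

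Msmo1, a sterol methyl oxidase, read 129.9, 99.0, 109 and 116 CPM in controls and 113, 175, 175 and 167 in DDC. DDC 1 fell among the controls and the other 3 lay above them. The rise of 1.39-fold (log2 0.47, SE 0.14, edgeR adjusted p = 0.0177) was lost without control 3 (adjusted p = 0.0503) and without controls 2 and 4 (adjusted p = 0.129). Cyp51, the lanosterol demethylase, had a log2 change of 0.20 (SE 0.14, edgeR adjusted p = 0.248), and Hsd17b7, a sterol ketoreductase, one of 0.17 (SE 0.12, adjusted p = 0.25). Both passed without DDC 1, Cyp51 at 0.31 (adjusted p = 0.0143) and Hsd17b7 at 0.27 (adjusted p = 0.00398). Nsdhl, a sterol dehydrogenase, and Dhcr7, the reductase that completes cholesterol, had log2 changes of -0.12 (SE 0.14, edgeR adjusted p = 0.485) and -0.12 (SE 0.16, adjusted p = 0.566). Each turned to 0.51 on library totals, where Cyp51 was at 0.82 and Hsd17b7 at 0.79, all called higher. Sc5d, a sterol desaturase, read 568, 313, 533 and 311 CPM in controls and 246, 351, 317 and 338 in DDC. Its log2 change of -0.46 (SE 0.22, edgeR adjusted p = 0.105) was 0.16 on library totals, and it passed as lower without control 2 (adjusted p = 0.0427), without control 4 (adjusted p = 0.0441) and without both (-0.83, adjusted p = 0.00145).

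**Figure D1:**
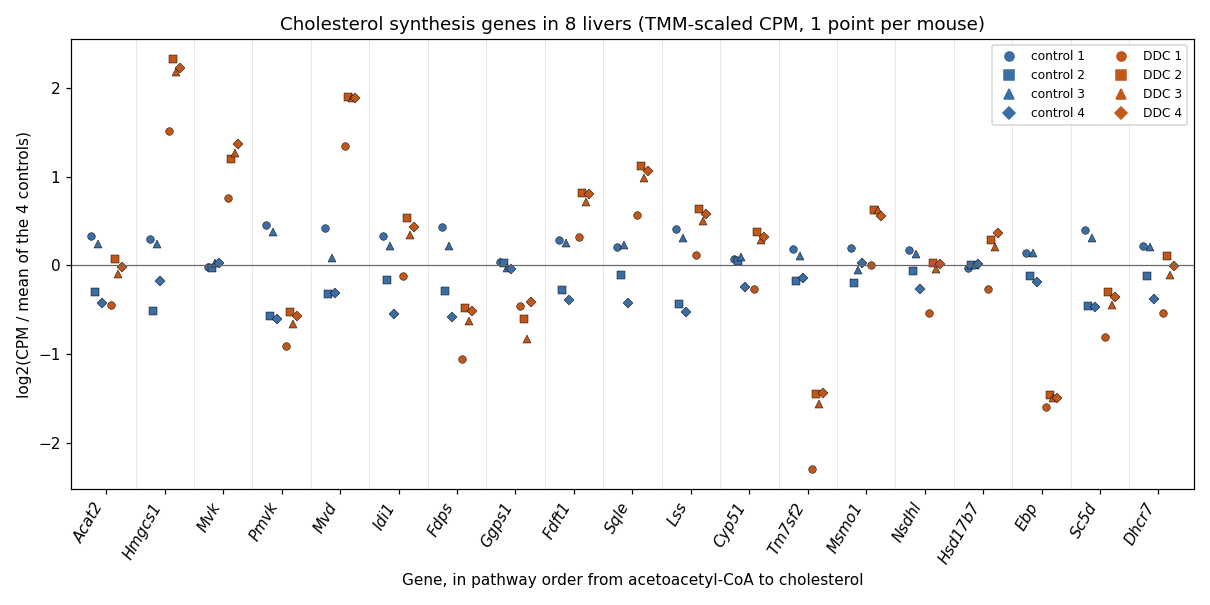
Each point is 1 mouse; the vertical axis is log2 of TMM-scaled CPM over the mean of the 4 controls, and the 19 synthesis genes stand in pathway order. Hmgcs1, Mvk and Mvd lie above the controls in all 4 DDC livers and Tm7sf2 and Ebp below them, controls 1 and 3 (blue circles and triangles) sit above controls 2 and 4 in 15 genes, and DDC 1 (orange circles) is the lowest of its group in 18.

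The same livers were high or low gene after gene. Controls 1 and 3 were both above controls 2 and 4 in 15 of the 19 synthesis genes and in 22 of the 32, and both below in 0 and 2. Control 1 was the highest control in 15 synthesis genes and control 4 the lowest in 13. DDC 1 was the lowest DDC library in 18 of 19, all but Ggps1, and in 25 of the 32. The median synthesis gene lay at 0.21, -0.18, 0.20 and -0.31 on the log2 scale against the control mean in controls 1 to 4, and at -0.27, 0.29, 0.21 and 0.32 in DDC 1 to 4. The widest control spreads were those of Pmvk (2.08-fold from lowest to highest), Fdps (2.02-fold), Lss (1.91-fold), Idi1 (1.84-fold) and Sc5d (1.83-fold). Mvk (1.04-fold), Hsd17b7 (1.04-fold) and Ggps1 (1.06-fold) hardly differed among the same controls. These counts were not set against a share of all genes. Over all genes compared, chi-squared per gene was 13.6 between controls 1 and 3 and 62.9 between controls 2 and 4. Across these pairs it was 164 to 223. DDC 1 differed from each other DDC library by 94.4 to 105, more than those differed among themselves. The split among the livers was thus not confined to the cholesterol genes, though these values give no direction. What sets this pattern among the livers is not in the labels and was not tested.

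The 4 genes of SREBP2 control moved in both directions. Srebf2 (ENSMUSG00000022463, chr15:82147181-82205379, plus strand), which encodes SREBP2, read 67.0, 52.1, 61.1 and 50.1 CPM in controls and 88.4, 91.8, 102 and 101 in DDC. The groups were apart, and the rise was 1.66-fold (log2 0.73, SE 0.10, edgeR adjusted p = 0.000168). Scap (ENSMUSG00000032485, chr9:110333288-110378776, plus strand), the escort that moves SREBP2 to the Golgi, read 135, 133, 126 and 134 CPM in controls and 64.7, 71.8, 71.0 and 72.8 in DDC. All DDC libraries lay far below the controls, and the 1.88-fold fall (log2 -0.91, SE 0.06, edgeR adjusted p = 1.05e-06) was -0.29 on library totals (adjusted p = 0.00199). Insig1 (ENSMUSG00000045294, chr5:28071363-28078662, plus strand), which holds SCAP in the endoplasmic reticulum and is itself an SREBP target, read 480.1, 299, 461 and 356 CPM in controls and 138, 234, 227 and 229.9 in DDC. The groups did not overlap, and the 1.92-fold fall (log2 -0.94, SE 0.20, edgeR adjusted p = 0.00381) kept its sign on library totals without passing there (-0.32, adjusted p = 0.199). Insig2, the second retention protein, read 139.9 ± 13.4 and 149 ± 18.3 CPM (log2 0.09, SE 0.10, edgeR adjusted p = 0.478; 0.71 on library totals, adjusted p = 9.77e-05).

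Ratios of related genes within a library do not depend on the scaling. The FPKM ratio of Insig1 to Insig2 was 4.01, 2.38, 4.11 and 2.53 in controls and 0.901, 1.75, 2.01 and 1.77 in DDC. Every DDC liver was below every control, and in DDC 1 Insig2 exceeded Insig1. The geometric means were 3.16 and 1.54, a log2 difference of -1.04 (log2 SD 0.42 and 0.52, n = 4 each, exact two-sided permutation test, p = 0.0286, the smallest that 4 against 4 can give, and 0.0286 after adjustment over 3 ratios).

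No uptake or delivery gene changed 2-fold on the TMM scale, though Npc2 did on library totals. Of 5, Npc2 rose, Npc1 and Stard4 fell, and Scarb1 and Lipa did not pass, whereas on library totals 4 were higher and none lower. Of all genes, 30.2% were called higher and 26.6% lower, or 58.9% and 8.96% on library totals. A list of only 5 is too short to be judged against these shares. Scarb1, the HDL receptor SR-BI, read 181 ± 19.1 and 167 ± 4.49 CPM (log2 -0.11, SE 0.08, edgeR adjusted p = 0.245; 0.51 on library totals, adjusted p = 0.00039), and passed as lower without controls 2 and 4 (-0.25, adjusted p = 0.00567). Lipa, the lysosomal acid lipase that frees cholesterol from esters, read 184 ± 29.6 and 200.2 ± 10.3 CPM (log2 0.12, SE 0.11, adjusted p = 0.373; 0.74 on library totals, adjusted p = 0.000219), and passed without controls 1 and 3 (0.33, adjusted p = 0.00747).

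NPC1 and NPC2 work as a pair to export cholesterol from the lysosome, and their RNAs went opposite ways on the TMM scale. Npc1 (ENSMUSG00000024413) read 208, 211, 188 and 216 CPM in controls and 145, 124, 124 and 121 in DDC. The groups were apart and the fall was 1.60-fold (log2 -0.68, SE 0.08, edgeR adjusted p = 5.43e-05), but on library totals it was -0.05 (adjusted p = 0.519). Npc2 (ENSMUSG00000021242) read 113, 84.9, 94.9 and 85.2 CPM in controls and 134, 138, 136 and 136 in DDC. The DDC libraries were tightly grouped above all controls, and the rise was 1.44-fold (log2 0.52, SE 0.09, edgeR adjusted p = 0.000833; 1.15 on library totals). Stard4, a soluble sterol carrier, read 91.6 ± 4.07 and 79.8 ± 6.20 CPM with overlapping groups. Its fall (log2 -0.20, SE 0.07, edgeR adjusted p = 0.0294) was lost without control 2, control 3, DDC 3 or DDC 4 (adjusted p of 0.0521 to 0.078) and turned to a called rise of 0.42 on library totals (adjusted p = 0.000421).

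**Figure D2:**
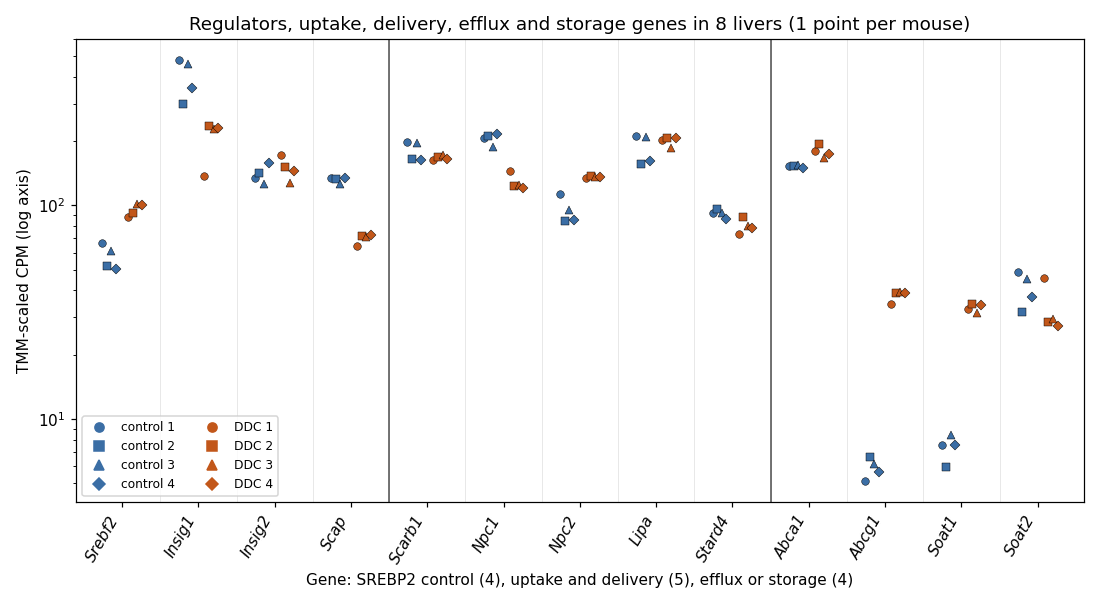
Each point is 1 mouse and the vertical axis is TMM-scaled CPM on a log axis, for the 4 SREBP2 control genes, the 5 uptake and delivery genes and the 4 efflux or storage genes, divided by vertical lines. Abcg1 and Soat1 rise from below 10 CPM in all controls to above 30 CPM in all DDC livers, and Scap, Insig1 and Npc1 are lower in every DDC liver on this scale, the last 2 without passing on library totals.

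Abcg1 and Soat1, of the efflux and storage genes, held the steepest rises of the 32. The log2 change of Soat1 (2.17, SE 0.11) lay less than an SE from that of Hmgcs1 (2.09, SE 0.23). Of the 4 efflux or storage genes, Abca1, Abcg1 and Soat1 rose under both scalings and Soat2 did not pass. The median log2 change of the 4 was 1.20. The share that rose was 75.0%, against 30.2% of all genes, or 58.9% on library totals, in a list of only 4. Abcg1 (ENSMUSG00000024030, chr17:31057675-31117988, plus strand), which passes cholesterol to HDL, read 5.10, 6.64, 6.13 and 5.66 CPM in controls and 34.4, 38.7, 39.5 and 38.9 in DDC. No control came near the DDC range, and the rise was 6.43-fold (log2 2.69, SE 0.10, edgeR adjusted p = 5.76e-08). Soat1 (ENSMUSG00000026600, chr1:156424525-156474331, minus strand), the widely expressed cholesterol acyltransferase that is prominent in macrophages, read 7.53, 5.94, 8.41 and 7.56 CPM in controls and 32.6, 34.7, 31.4 and 34.1 in DDC. The groups were again far apart, at 4.51-fold (log2 2.17, SE 0.11, edgeR adjusted p = 2.40e-07). Abca1, which loads cholesterol onto apolipoprotein A-I, read 154, 152, 154 and 149.96 CPM in controls and 181, 194, 167 and 175 in DDC. That rise was small, 1.17-fold, against a control spread of 1.81 CPM (log2 0.23, SE 0.06, edgeR adjusted p = 0.00816; 0.85 on library totals). Soat2, the acyltransferase of hepatocytes and enterocytes, read 48.5, 31.7, 45.3 and 37.1 CPM in controls and 45.8, 28.4, 29.3 and 27.3 in DDC. DDC 1 lay among the controls and the other 3 below them all; the log2 change of -0.31 (SE 0.19, edgeR adjusted p = 0.194) passed without DDC 1 (-0.54, adjusted p = 0.00582) and was 0.31 on library totals (adjusted p = 0.175).

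Abcg1 and Soat1 moved beside the macrophage markers, whose summed level went from 201 to 251 CPM in controls to 1893 to 2051 in DDC with 12 of 12 higher, and beside the Kupffer cell markers with 5 of 5 higher. Cholangiocyte markers also rose in 5 of 6 (66.8 to 145 against 699 to 1073 CPM). Stellate cell or fibroblast markers rose in 4 of 6 (234 to 354 against 909 to 1038 CPM), while hepatocyte markers fell in 8 of 8. The part of any of these cells in the rises of Abcg1 and Soat1 was not tested. Per length both genes were the least abundant of the 32 in controls, at 0.626 ± 0.0765 FPKM for Abcg1 and 0.582 ± 0.0811 for Soat1. They stood at 6.20 ± 0.468 and 4.04 ± 0.156 FPKM in DDC, where Ggps1 was lowest. These FPKM values follow library totals, on which the rises were 9.91-fold for Abcg1 and 6.95-fold for Soat1.

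The Soat1 to Soat2 FPKM ratio was 0.0348, 0.0420, 0.0419 and 0.0458 in controls and 0.161, 0.275, 0.242 and 0.282 in DDC. Soat2 remained the more abundant per length in every liver, but the geometric mean of the ratio rose 5.73-fold, from 0.0409 to 0.234 (log2 difference 2.52, log2 SD 0.17 and 0.38, n = 4 each). The Abca1 to Abcg1 FPKM ratio was 21.3, 16.2, 17.7 and 18.8 in controls and 3.70, 3.53, 2.98 and 3.17 in DDC. Abca1 thus stayed ahead of Abcg1, by a geometric mean of 18.4 in controls and 3.33 in DDC (log2 difference -2.47, log2 SD 0.16 and 0.14, n = 4 each). For both ratios the exact two-sided permutation test gave p = 0.0286, again the smallest possible and unchanged by adjustment over the 3 ratios.

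**Figure D3:**
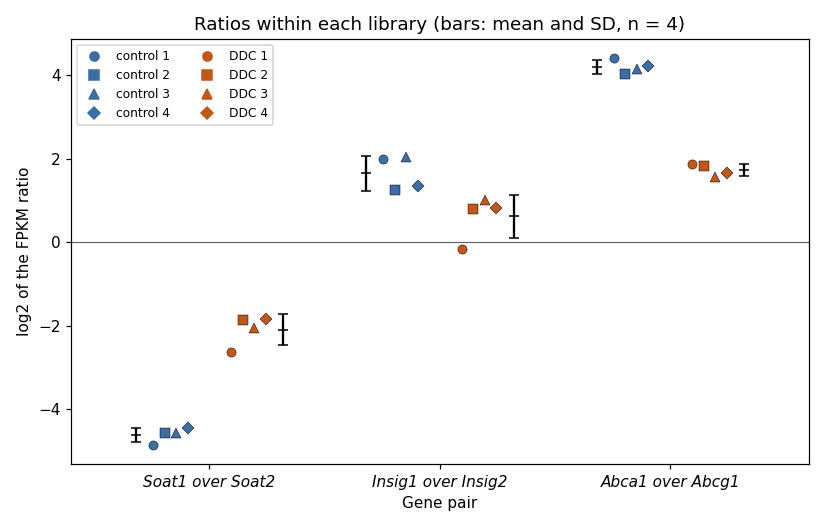
The vertical axis is log2 of the FPKM ratio within a library, with 1 point per mouse, and bars give the mean and SD of 4 mice. Soat1 over Soat2 is higher in all 4 DDC livers than in any control, and Insig1 over Insig2 and Abca1 over Abcg1 are lower.

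Ranking by FPKM, which compares levels per length and whose order within a library does not depend on the scaling, Insig1 (100.4 ± 21.8), Ebp (96.2 ± 12.1), Sc5d (69.1 ± 22.4) and Fdps (53.0 ± 16.8) led the 32 genes in controls. The first 2 differed by less than their SDs, as did the next 2. In DDC the order was Hmgcs1 (133 ± 30.5), Insig1 (80.1 ± 18.5), Sc5d (76.8 ± 11.7) and Idi1 (68.7 ± 12.9), and only Hmgcs1 stood clear of its neighbour by more than an SD. Ebp went from the second place to the seventh and Tm7sf2 from the sixth (35.2 ± 4.52) to rank 21 (17.3 ± 4.33), while Mvd went from rank 29 (4.53 ± 1.16) to rank 17 (23.8 ± 4.26). Because FPKM follows library totals, these values give the order within a group and not the TMM change between groups.

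**Figure D4:**
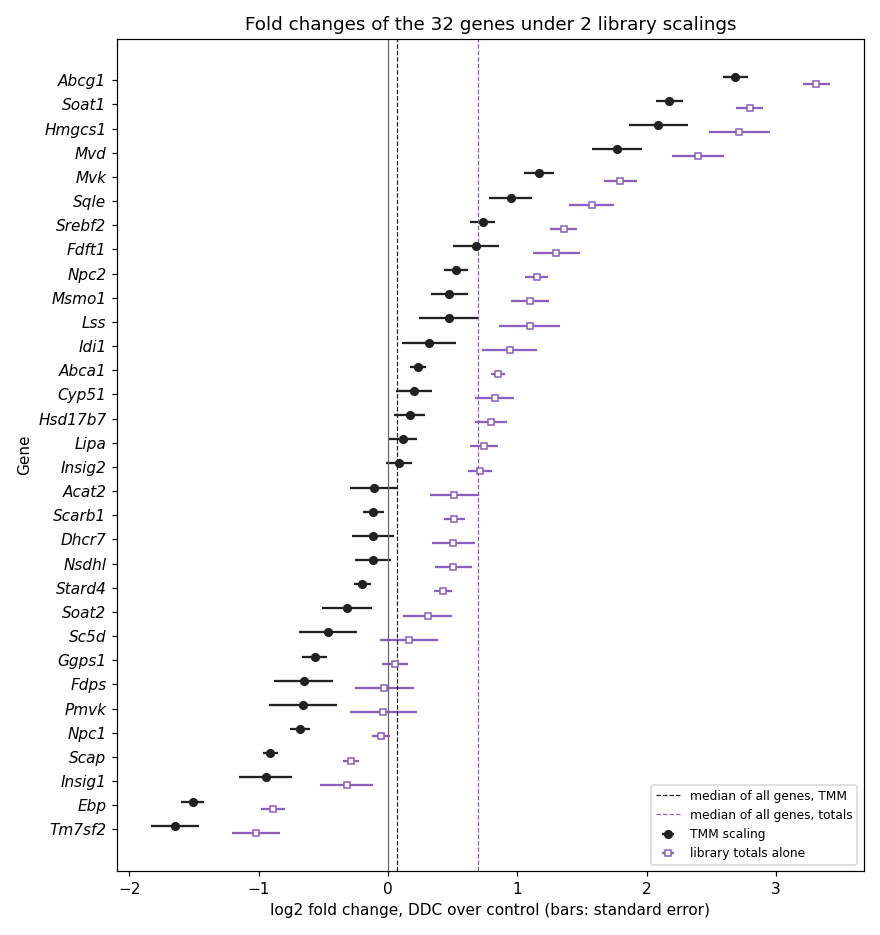
The horizontal axis is the log2 fold change of DDC over control for each of the 32 genes, with standard errors, under TMM scaling (filled) and library totals alone (open); dashed lines are the medians of all genes, 0.07 and 0.70. Abcg1, Soat1, Hmgcs1 and Mvd lie far right and Tm7sf2 and Ebp left of 0 under both, whereas Ggps1, Stard4, Acat2, Scarb1, Dhcr7, Nsdhl, Soat2 and Sc5d change sign between them.

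Lists of related genes were read from the same fit, and their counts stand against the 30.2% of all genes called higher and 26.6% lower, or 58.9% and 8.96% on library totals. Nothing particular to a list is read from them. In the isoprenoid branch, which uses the intermediates for prenylation, dolichol and ubiquinone, 3 of 12 rose (25.0%) and 5 fell (41.7%), and 10 were higher and 1 lower on library totals (83.3% and 8.33%). Rabggtb, a subunit of the Rab geranylgeranyl transferase, fell from 57.7 ± 4.41 to 32.9 ± 2.46 CPM (log2 -0.81, edgeR adjusted p = 1.46e-05; -0.19 on library totals, adjusted p = 0.0316). Fnta, the alpha subunit shared by farnesyl and geranylgeranyl transferases, and Icmt, which methylates prenylated proteins, were at -0.32 and -0.33, and both turned to called rises of 0.30 on library totals. Among proteins that process or partner SREBPs, 3 of 12 rose (25.0%) and 6 fell (50.0%), and 9 (75.0%) were higher and none lower on library totals. Srebf1, the lipogenic relative of Srebf2, rose from 141 ± 19.2 to 209 ± 39.3 CPM (log2 0.57, edgeR adjusted p = 0.00988). Erlin1, an endoplasmic reticulum protein, fell from 54.0 ± 5.66 to 40.9 ± 4.67 CPM (log2 -0.40, edgeR adjusted p = 0.00665), and was at 0.22 on library totals (adjusted p = 0.0698).

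Of 7 genes for LXR, its partner and its other targets, 2 rose (28.6%) and 5 fell (71.4%), and 2 were higher and 3 lower on library totals (28.6% and 42.9%). Rxra, the partner of LXR, fell from 450.3 ± 10.96 to 234 ± 10.6 CPM (log2 -0.94, edgeR adjusted p = 9.14e-07; -0.32 on library totals, adjusted p = 0.000855). Abcg5, a subunit of the canalicular sterol exporter, fell from 146 ± 17.8 to 74.3 ± 9.35 CPM (log2 -0.97, edgeR adjusted p = 6.23e-05; -0.35 on library totals, adjusted p = 0.0261). Lpcat3, a phospholipid acyltransferase, was at -0.73 (-0.11 on library totals, adjusted p = 0.259). Of 7 lipoprotein and scavenger receptor genes 4 rose (57.1%) and 2 fell (28.6%), and 6 (85.7%) were higher and none lower on library totals. Cd36, a fatty acid and lipoprotein scavenger receptor, rose from 71.3 ± 20.5 to 157 ± 23.9 CPM (log2 1.14, edgeR adjusted p = 0.00092), while the endocytic receptor Lrp1 (-0.39) and its chaperone Lrpap1 (-0.45) were lower on the TMM scale but higher on library totals (0.24 and 0.18).

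Of 11 sterol transfer proteins 1 rose and 8 fell on the TMM scale (9.09% and 72.7%), whereas 7 were higher and 1 lower on library totals (63.6% and 9.09%). Scp2, the sterol carrier of peroxisomes, fell from 2888 ± 722 to 955 ± 80.7 CPM (log2 -1.60, edgeR adjusted p = 2.87e-05; -0.97 on library totals, adjusted p = 0.00041). Stard5 (-0.58) and Osbpl9 (-0.38) were lower on the TMM scale, at 0.05 and 0.25 on library totals. Of 6 genes that make, break or coat cholesteryl esters, none rose and 4 fell (66.7%), and 2 were higher and 4 lower on library totals (33.3% and 66.7%). Ces1d, a carboxylesterase, fell from 1396 ± 286 to 219.9 ± 21.5 CPM (log2 -2.67, edgeR adjusted p = 5.78e-07), Lcat, the plasma acyltransferase made by hepatocytes, from 474 ± 36.1 to 188 ± 9.81 (log2 -1.33, adjusted p = 4.90e-07), and Plin2, a lipid droplet coat, from 389.7 ± 26.9 to 173 ± 15.9 (log2 -1.17, adjusted p = 2.38e-06). These 3 were also lower on library totals, at -2.04, -0.71 and -0.55. They fell beside the hepatocyte markers, 8 of 8 lower on the TMM scale and 7 of 8 on library totals, whose part in it was not tested.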

How the data were processed

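Gene counts and FPKM values per library are those the authors deposited. Per the submitters' processing notes, cutadapt, FastQC, HISAT2, StringTie and DESeq2 were used with GRCm38 (mm10), with versions and strand setting not given in the sources used here. The deposited counts of 4 control and 4 DDC livers (biological replicates, per the labels) were tested with edgeR 4.0.16 in R 4.3.3: filterByExpr, TMM, quasi-likelihood, two-sided, Benjamini-Hochberg over 19535 of 55401 genes, adjusted p under 0.05. The deposited FPKM values, which follow library totals, gave levels per length and 3 within-library ratios (exact permutation test over 70 assignments, scipy 1.17.1). Alternatives used limma 3.58.1, DESeq2 1.42.0, other scalings, filters and left-out libraries, and the code was tested on simulated data. Gene positions are from GENCODE M21 and promoters from RefSeq. All 32 members are named; of each related list, up to 3 called genes with the highest mean FPKM are named, except 1 gene that is not reported here, and libraries are given singly for called members of at least 1.5-fold, for the widest control spreads and for others whose groups needed showing. The members and lists were chosen with earlier results of these data known.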

Additional observations from a re-analysis of the deposited data

Results flagged for a closer look

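The sets examined were 64, each of 4 libraries (32 genes, 2 groups). In each, the gap of the extreme library to its nearest neighbour was set against the whole range. Dixon's limit was 0.829, which chance passes in about 1 in 20 independent sets, and 9 passed. The sets share the same livers, which were high or low gene after gene. They are therefore not independent, and the 9 cannot be judged against that rate. DDC 1 was the extreme library in 7 of the 9. DDC 1 was low for Mvd (27.5 CPM against 39.9 to 40.4 in the other 3), Msmo1 (113 against 167 to 175), Nsdhl (56.4 against 79.2 to 82.9), Insig1 (138 against 227 to 234) and Abcg1 (34.4 against 38.7 to 39.5). The same liver was high for Npc1 (145 against 121 to 124 CPM) and Soat2 (45.8 against 27.3 to 29.3). The other 2 were controls: control 4 was low for Cyp51 (155 against 191 to 197 CPM) and control 3 for Scap (126 against 133 to 135). Of the 3 genes here that rose, DDC 1 stayed above every control for Mvd and Abcg1 and lay inside the control range for Msmo1 (99.0 to 129.9 CPM).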

How the results depend on the processing

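Most of the changes came with the settings that follow library totals. All genes called higher went from 5893 to 11505 with library totals alone, 11077 with totals without the 20 most abundant genes, 11757 and 11801 with limma on log2(FPKM + 0.1) and log2(FPKM + 1), and 3316 when the change had to exceed 1.5-fold; genes called lower went from 5205 to 1750, 1890, 1818, 1804 and 2120. Of the 32 genes, those called higher went from 11 to 22, 21, 22, 22 and 6 in the same order, and those called lower from 8 to 3 each time. With library totals alone, totals without the top genes and the 2 FPKM fits in turn, the log2 change turned to 0.0559, 0.0109, 0.0441 and 0.0351 for Ggps1, 0.51, 0.46, 0.49 and 0.47 for Nsdhl, 0.51, 0.46, 0.50 and 0.46 for Dhcr7, 0.51, 0.47, 0.51 and 0.49 for Scarb1, and 0.42, 0.38, 0.41 and 0.39 for Stard4. Acat2 turned to 0.51 with library totals alone and to 0.53 and 0.52 with FPKM, and Fdps to 0.00159 and 0.000905 with FPKM. Between TMM and library totals alone the median log2 change of all genes shifted by 0.62. Which of these scalings is nearer to the RNA per liver was not tested.

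Over 22 alternatives, 596 of 704 gene values kept direction and call, 41 lost the call, 42 gained one and 25 turned with a call on one side or the other; another 19 turned without a call. Leaving out 1 library changed 18 of 256 calls, in 9 genes. Without 1 library the log2 difference in the Soat1 to Soat2 ratio ranged from 2.43 to 2.70, in Insig1 to Insig2 from -1.17 to -0.78, and in Abca1 to Abcg1 from -2.53 to -2.40, where 3 against 4 cannot give an exact p below 0.0571. Same-numbered libraries did not deviate together (correlations -0.21, -0.18, 0.03 and -0.05). These values gave no sign that the numbers pair the mice, but with 4 libraries a group they cannot exclude it. A replicate block gave 4810 genes higher and 4654 lower, ended the calls of Fdps (-0.61, adjusted p = 0.115) and Msmo1 (0.46, adjusted p = 0.0698) and added Soat2 (-0.33, adjusted p = 0.043). With 4 mice a group small changes may be missed, and the lowest group mean of the 32 genes was 5.88 CPM, for Abcg1 in controls.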
